A study of Mus musculus with 6 samples.

Results

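The neurons of the cerebral cortex are stacked in layers, and 9 genes commonly used to tell these layers apart were read here in the cortex of SAMP8 and SAMR1 mice: Cux1, Cux2, Rorb, Bcl11b, Fezf2, Etv1, Tbr1, Foxp2 and Ctgf. A gene on the array is read by 1 or more probe sets, each a group of short probes for 1 stretch of the transcript. All probe sets whose gene symbol entry held one of the 9 symbols were taken, whatever their values, which gave 30 of the 45077 probe sets and 9 of the 22527 genes with a symbol.

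The array measured total RNA of the cerebral cortex of 6 male mice, 2 in each of 3 groups. The labels give the age as 16 weeks, and per the methods mice of this age entered the study, so the tissue was taken after the administration and tests described next. SAMR1 + Water mice belonged to the senescence-accelerated mouse resistant strain, which serves as the control strain, and SAMP8 + Water mice to the senescence-accelerated prone strain, a model of early cognitive decline; both received water by mouth. SAMP8 + STEE mice received an ethanol extract of sugarcane top (STEE) by mouth at 20 mg/kg for 30 days, continued through 8 days of behavioral tests, and the water of the other groups followed the same schedule. Mice of every group were housed individually, and per the study's methods all of them were given the label BrdU in the drinking water. Since SAMR1 and SAMP8 are separate inbred strains, differences between them include every difference in their genetic background, and no SAMR1 mouse received STEE.

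Cortical neurons are born in a sequence, the deep layers before the upper ones, and transcription factors fix what kind of projection each neuron makes. Cux1, Cux2 and Rorb mark the upper layers, whose neurons connect within the cortex or, in layer IV, receive thalamic input. Fezf2 and Bcl11b (Ctip2) specify the layer V neurons that project below the cortex, and Etv1 (Er81) marks other layer V neurons. Tbr1 and Foxp2 mark the corticothalamic neurons of layer VI, and Ctgf, a secreted matrix-associated protein named Ccn2 in RefSeq, marks the thin layer VIb that remains from the subplate.

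The values are group means of log2 signal that the authors computed over the 2 mice of a group, so a difference of 1 on this scale is a doubling. The tables analysed here give no value per mouse, so no difference below has a standard error or a test, and all are a description of 6 mice. A difference counted as past the threshold where it was at least 0.25 on the log2 scale, or 1.19-fold, and the share of all probe sets or genes past the same threshold is given as the background. Where a gene has several probe sets, the spread of their differences is the only internal check, and it is a check of the probes, not of the mice. In bulk tissue, fewer cells of a type and less RNA per cell cannot be told apart.

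The median signal of all probe sets was 4.16 in SAMR1 + Water and 4.15 in both SAMP8 groups. Of the 30 probe sets of the layer genes, 24 lay at or above the median signal and 6 lay below it. Markers of cortical excitatory neurons were present in all groups, with a mean signal over 5 genes of 7.57, 7.56 and 7.60. The signal of Camk2a, a kinase of excitatory synapses, was 10.97 in SAMR1 + Water, 10.98 in SAMP8 + Water and 11.00 in SAMP8 + STEE, at its brightest probe set, while its 5 probe sets ranged from -0.57 to 0.01 between the strains. The signal of Slc17a7, the vesicular glutamate transporter of cortical neurons, was 7.05, 7.10 and 7.19. Read by the brightest probe set, only Neurod6 of this list, a transcription factor of these neurons, was past the threshold between the strains, at 8.00 in SAMR1 + Water and 7.75 in SAMP8 + Water. Markers of tissue next to the cortex did move with strain. By the brightest probe set, all 9 genes of a list of striatal neuron markers were higher in SAMP8 + Water than in SAMR1 + Water. They were higher by 0.32 to 0.89, and all 5 thalamic markers were lower, by a median of -0.73. Other probe sets did not always share the sign. The 3 of Rgs9, a striatal marker, ranged from -0.07 to 0.45, and the 9 of Rora, a thalamic one, from -0.28 to 0.82. Mean signals of both lists are given again beside the layer genes.

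**Figure D1:**
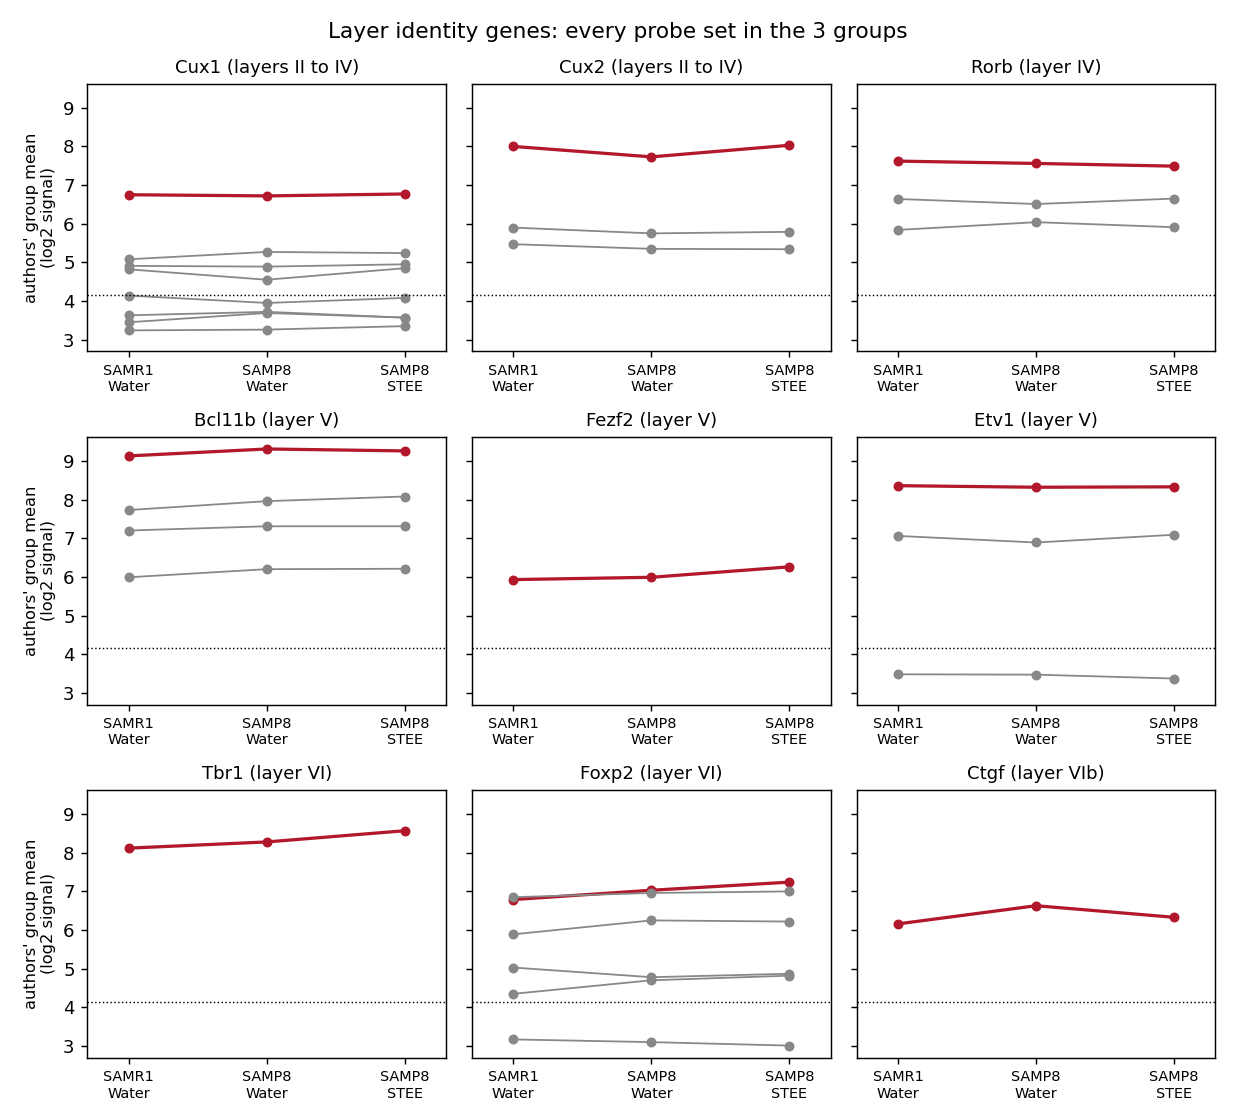
Group mean log2 signal (vertical axis) of every probe set of the 9 layer genes in SAMR1 + Water, SAMP8 + Water and SAMP8 + STEE (horizontal axis), 1 panel per gene; the red line is the gene's brightest probe set (highest mean over the 3 groups), grey lines are the other probe sets, and the dotted line is the median of all probe sets, 4.15. Tbr1 steps up from 8.12 to 8.28 and 8.57 across the groups, Ctgf peaks at 6.63 in SAMP8 + Water, and the brightest Cux2 probe set dips to 7.73 there.

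The first comparison, SAMP8 + Water against SAMR1 + Water, asks how the layer genes differed between the senescence-prone and the resistant strain. Read by the brightest probe set of each gene, Ctgf was higher and Cux2 was lower in SAMP8 + Water past the threshold, and the other 7 genes lay within it. This is 2 of 9 genes, against 8.09% of all genes read the same way, of which 4.25% were higher and 3.84% lower. Over probe sets, 6 of 30 were past the threshold, 3 higher and 3 lower, against 8.52% of all probe sets (4.32% higher, 4.2% lower). Bright probe sets passed more often, so the 6 of 24 layer probe sets at or above the median signal stand against 13.8% of all such probe sets. The brightest probe set of each member is among these 24. The median difference of the 30 probe sets was 0.04, against 0.00 over all probe sets, and their median absolute difference was 0.165, against 0.07.

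In the upper layers, the values leaned low in SAMP8 + Water but differed between genes. Of the 14 probe sets of Cux1, Cux2 and Rorb, 9 were lower and 5 higher than in SAMR1 + Water. Their median was -0.045. The 2 past the threshold were both lower, against 8.52% of all probe sets past it in either direction. Cux2, a homeodomain factor that shapes dendrites and synapses of upper layer neurons, gave a signal of 8.00 in SAMR1 + Water and 7.73 in SAMP8 + Water at its brightest probe set, a difference of -0.27. Of all probe sets on the array, 7.11% differed by at least this much. The other Cux2 probe sets were also lower, from 5.90 to 5.75 and from 5.47 to 5.35, so all 3 had the same sign and averaged -0.18, which is within the threshold.

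Cux1, the close relative of Cux2, is the most heavily sampled of the 9 genes, with 8 probe sets. They split evenly, 4 higher and 4 lower, between -0.27 and 0.24, and averaged 0.00. At the brightest the signal was 6.75 in SAMR1 + Water and 6.72 in SAMP8 + Water. The only Cux1 probe set past the threshold, at 4.82 and 4.55, carries an identifier ending in s_at, a design that can match several transcripts. Cux1 thus gave no common direction, and 4 of its 8 probe sets lay below the median signal of the array.

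Rorb, the nuclear receptor that marks layer IV, did not pass the threshold at any of its 3 probe sets. Its signals in SAMR1 + Water and SAMP8 + Water were 7.62 and 7.56 at the brightest, 6.64 and 6.51 at the second, and 5.84 and 6.04 at the faintest. The probe sets disagreed in sign, at -0.06, -0.13 and 0.20.

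In layer V, none of the 8 probe sets passed the threshold, yet the genes did not look alike. Bcl11b, the zinc finger factor needed for corticospinal axons, was higher in SAMP8 + Water at all 4 of its probe sets. The signal went from 9.13 to 9.31, from 7.73 to 7.96, from 7.20 to 7.31 and from 5.99 to 6.20, differences between 0.11 and 0.23 with an SD of 0.053 over probe sets. This was the tightest spread between the strains of the 6 layer genes with several probe sets. Fezf2, which acts upstream of Bcl11b in these neurons, has 1 probe set, at 5.93 and 5.99. Etv1, an ETS family factor, was nearly level at its brightest probe set, at 8.36 and 8.32, and its other probe sets went from 7.06 to 6.89 and from 3.48 to 3.47. All 3 Etv1 probe sets list the symbol Gm5454 as well, so signal from that gene could not be separated.

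The largest strain differences of the 9 genes were at Ctgf and at 2 Foxp2 probe sets. Of the 8 probe sets of Tbr1, Foxp2 and Ctgf, 6 were higher and 2 lower in SAMP8 + Water, with a median of 0.20. The 4 past the threshold (3 higher, 1 lower) stand against 8.52% of all probe sets. Foxp2 held 3 of these 4, without a common sign. By the brightest probe set, Ctgf alone of the 3 genes was past it. The 9 other layer VI and subplate genes, listed further below, had a median of 0.09. Ctgf, with 1 probe set, gave 6.16 in SAMR1 + Water and 6.63 in SAMP8 + Water, a difference of 0.47 or 1.39-fold. Of all probe sets, 1.60% differed by at least this much. Tbr1, the T-box factor that sets corticothalamic identity, also has 1 probe set and gave 8.12 and 8.28, a difference of 0.16.

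Foxp2, a forkhead factor of corticothalamic neurons, has 6 probe sets, and 4 were higher in SAMP8 + Water. The 2 brightest went from 6.79 to 7.03 and from 6.85 to 6.96, both within the threshold. Fainter ones went from 5.89 to 6.25 and from 4.35 to 4.70, higher by 0.36 and 0.35. One went the other way, from 5.03 to 4.78, and the faintest, below the median signal, from 3.17 to 3.10. The difference at Foxp2 therefore depended on the probe set, between -0.25 and 0.36.

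Bcl11b and Foxp2 are also made by the projection neurons of the striatum. By the brightest probe set the striatal markers were all higher in SAMP8 + Water, while Bcl11b was higher within the threshold and Foxp2 had no common sign. The mean signal over the 9 striatal genes was 7.72 in SAMR1 + Water, 8.32 in SAMP8 + Water and 8.38 in SAMP8 + STEE. Ppp1r1b (DARPP-32, a phosphatase inhibitor of dopamine-responsive neurons) gave 7.13, 8.00 and 7.97, and Drd1 (listed as Drd1a), the D1 dopamine receptor, gave 7.47, 8.36 and 8.36. Penk, the precursor of enkephalin, gave 9.0, 9.72 and 9.63, and Pde10a, a phosphodiesterase of these neurons, 8.86, 9.47 and 9.61. All 9 had a mean signal above the median of all probe sets. The part of this shift in the Bcl11b and Foxp2 values was not tested. Ctgf is also made by endothelial and mural cells, and of 7 markers of these cells 1 was higher past the threshold and 2 were lower, with a median of -0.01 and a mean signal of 6.49, 6.45 and 6.49 over the groups. Among them Rgs5, a marker of pericytes, was at -0.01 by its brightest probe set, but its 4 probe sets ranged from -0.01 to 1.11. Oligodendrocyte markers, which are rich in the white matter under layer VIb, were lower for 7 of 7 genes, 4 of them past the threshold, with a median of -0.25 and a mean signal of 8.76, 8.48 and 8.50. The 5 thalamic markers, which include Slc17a6, the glutamate transporter of thalamic neurons, had a mean signal of 6.55, 5.85 and 5.99. Hippocampal markers had a median of -0.28 and choroid plexus markers of -0.30, with 4 of 7 genes lower past the threshold in each list. Of these lists 2 of 7 genes each had a signal above the median of all probe sets, with mean signals of 3.88, 3.63 and 3.59 for hippocampus and 4.62, 4.15 and 4.29 for choroid plexus. Of 6 interneuron markers 1 was higher past the threshold, the peptide Vip, at 7.84, 8.71 and 8.85, and the list's median was 0.205. Of all genes, 4.25% were higher and 3.84% lower past the threshold between the strains. The part of these lists in the layer gene values was not tested.

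**Figure D2:**
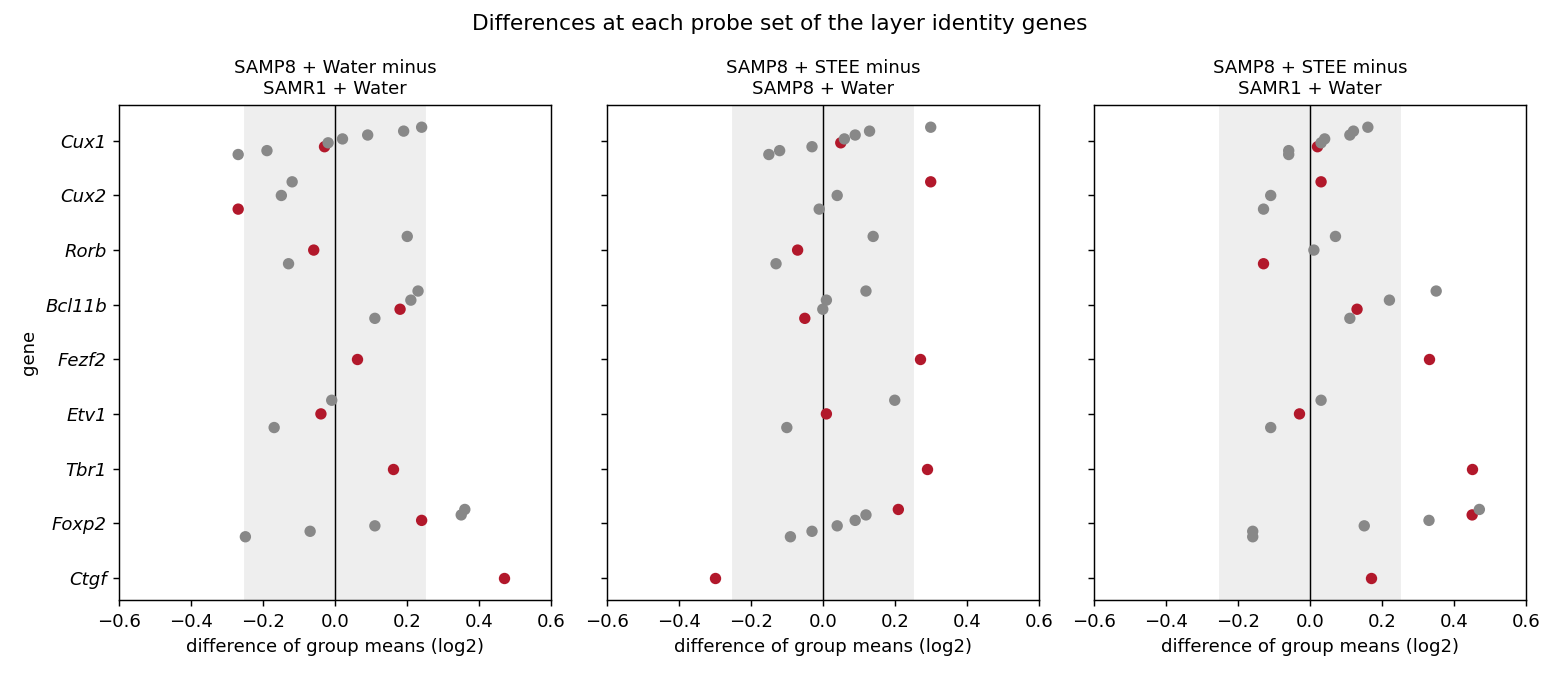
Difference of group mean log2 signal (horizontal axis) for every probe set of the 9 layer genes (rows) in the 3 comparisons (panels); the red point is the gene's brightest probe set (highest mean over the 3 groups), grey points are the other probe sets, and the grey band spans -0.25 to 0.25. All 4 Bcl11b probe sets lie to the right of 0 in the strain panel, and the Cux1 points lie on both sides. In the STEE panel Tbr1, Fezf2, the brightest Cux2 probe set and 1 grey Cux1 point pass the band to the right, and Ctgf to the left.

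The second comparison, SAMP8 + STEE against SAMP8 + Water, asks which layer genes differed with the extract. It shares the 2 SAMP8 + Water mice with the first comparison, where their mean enters with the opposite sign. A low or high value in these mice by itself gives opposite differences in both. Opposite pairs, as at Cux2 and Ctgf below, are therefore not read as a return towards SAMR1 + Water. By the brightest probe set, Cux2, Tbr1 and Fezf2 were higher and Ctgf was lower in SAMP8 + STEE past the threshold, 4 of 9 genes, against 2.62% of all genes (1.4% higher, 1.22% lower). Over probe sets, 5 of 30 were past it, 4 higher and 1 lower, against 2.67% of all probe sets (1.37% higher, 1.3% lower). Among probe sets at or above the median signal, which include the brightest one of each member, the count was 5 of 24, against 3.92%. The members were chosen with earlier results of these data known. The median difference was 0.04, against 0.00 over all probe sets, and the median absolute difference was 0.095, against 0.06. Over the 9 brightest probe sets the median absolute difference was 0.21, against 0.06 over all genes.

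Tbr1 went from 8.28 in SAMP8 + Water to 8.57 in SAMP8 + STEE, a difference of 0.29 or 1.22-fold, and 1.47% of all probe sets differed by at least this much. Fezf2 went from 5.99 to 6.26, a difference of 0.27, with 2.01% of all probe sets at or past it. Each of these genes has 1 probe set, so no second probe set bears on either value.

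Cux2 went from 7.73 to 8.03 at its brightest probe set, a difference of 0.30, against 8.00 in SAMR1 + Water. The other Cux2 probe sets did not share this, going from 5.75 to 5.79 and from 5.35 to 5.34, and the mean over the 3 was 0.11, within the threshold. One Cux1 probe set, the one named above with the s_at identifier, had the same pair of differences, -0.27 between the strains and 0.30 with STEE, going from 4.55 to 4.85. The remaining 7 Cux1 probe sets lay between -0.15 and 0.13 with STEE, and the brightest went from 6.72 to 6.77.

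Ctgf went from 6.63 to 6.33, a difference of -0.30 that left it at 0.17 above SAMR1 + Water. Of all probe sets, 1.26% differed by at least this much. By the brightest probe set, the 7 endothelial and mural markers lay between -0.23 and 0.15 with STEE, none past the threshold, with a median of 0.07. The 4 probe sets of Flt1, among these markers, ranged from -0.25 to 0.14.

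The other members lay within the threshold with STEE. Bcl11b went from 9.31 to 9.26, from 7.96 to 8.08 and from 6.20 to 6.21, and stayed at 7.31 at the remaining probe set. Foxp2 went from 7.03 to 7.24 at its brightest probe set, and its others lay between -0.09 and 0.12. Rorb went from 7.56 to 7.49, from 6.51 to 6.65 and from 6.04 to 5.91, without a common sign. Etv1 stayed close to level at its brightest probe set, 8.32 and 8.33, went from 6.89 to 7.09 at the second and from 3.47 to 3.37 at the faintest, which is below the median signal.

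Read by the brightest probe set, the striatal markers lay between -0.09 and 0.18 with STEE, and none of the 9 reached the threshold. The thalamic list had 1 gene past it, Plekhg1, higher by 0.42 at the brighter of its 2 probe sets and level at the other. The choroid plexus list, by the brightest probe set, had 1 as well, Ttr (transthyretin, the carrier protein abundant in choroid plexus). Its signal was 10.20 in SAMR1 + Water, 8.24 in SAMP8 + Water and 9.33 in SAMP8 + STEE. No cortical excitatory marker reached the threshold with STEE, and their median was 0.02.

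The third comparison sets SAMP8 + STEE against SAMR1 + Water. It shares its mice with the other comparisons and follows from them by sums, so it describes where the treated group stood and is no further evidence. By the brightest probe set, Tbr1, Foxp2 and Fezf2 were past the threshold, all higher in SAMP8 + STEE, 3 of 9 genes, against 8.88% of all genes (5.35% higher, 3.53% lower). Over probe sets, 6 of 30 were past it, all higher, against 9.45% of all probe sets (5.46% higher, 4.0% lower) and, for the 6 of 24 at or above the median signal, 15.5%. None of the 14 upper layer probe sets was past the threshold, their range being -0.13 to 0.16. Of the 16 probe sets of the layer V, VI and VIb genes, 12 were higher and 6 were past it. The other upper layer genes listed further below did not stay within it. By the brightest probe set, 4 of those 10 were higher past it and 0 lower, against 5.35% and 3.53% of all genes.

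Tbr1 stood 0.45 above SAMR1 + Water, or 1.37-fold, and its levels of 8.12, 8.28 and 8.57 were stepwise over the 3 groups. The brightest Foxp2 probe set was also 0.45 higher, with 6.79, 7.03 and 7.24, while the other Foxp2 probe sets ranged from -0.16 to 0.47. The mean over all 6 was 0.18 and the median 0.24, both within the threshold, which leaves 2 of the 9 genes past it. Fezf2 was 0.33 higher, at 5.93, 5.99 and 6.26. One of the 4 Bcl11b probe sets was past the threshold, at 7.73, 7.96 and 8.08. In this comparison too the 9 striatal markers, by the brightest probe set, were all higher past the threshold, by 0.42 to 0.95. Their part in the Bcl11b and Foxp2 values was not tested.

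A list of 26 other layer genes, 10 upper, 7 of layer V and 9 of layer VI and the subplate, was read by the brightest probe set of each. Between the strains 4 of the 26 were higher past the threshold in SAMP8 + Water and 1 was lower, with a median of 0.095. Of all genes, 4.25% were higher and 3.84% lower past it. With STEE 1 was higher and none lower, with a median of 0.005, against 1.4% and 1.22% of all genes. Between SAMP8 + STEE and SAMR1 + Water, 7 were higher and 1 lower, with a median of 0.07, against 5.35% and 3.53% of all genes. Of the 7, 4 were upper layer genes, 1 was of layer V and 2 of layer VI and the subplate. The 1 lower gene was of layer V. The upper layer list did not lean the way of Cux2. By the brightest probe set, 9 of its 10 genes were higher in SAMP8 + Water, against 10613 of all 22527 genes. In this list 3 genes were past the threshold, while Lhx2 and Rasgrf2 were at 0.04 and Pou3f3 at 0.06. Of its 10 genes, 8 had a signal above the median of all probe sets. Lamp5, a membrane protein of upper layer neurons and some interneurons, gave 9.23 in SAMR1 + Water, 9.79 in SAMP8 + Water and 9.89 in SAMP8 + STEE. Inhba, a subunit of activin, gave 6.44, 6.77 and 6.86, with its second probe set at -0.02 between the strains. Calb1, the calcium buffer calbindin, gave 9.15, 9.35 and 9.42, but only 1 of its 4 probe sets was higher between the strains (range -0.16 to 0.20), and all 4 were higher with STEE, by 0.07 to 0.42. Rasgrf2, an exchange factor of upper layer neurons, gave 9.19, 9.23 and 9.28. Calb1 and Lamp5 are not limited to these neurons, and Calb1 is abundant in the striatum too; the part of the striatal and interneuron values given above was not tested.

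In the layer V list, Deptor, an inhibitor of mTOR, gave 6.88, 6.42 and 6.48 at its brightest probe set, lower by -0.46 between the strains, but its 6 probe sets ranged from -0.46 to 0.29. Ldb2, a cofactor of LIM-domain proteins in layer V neurons, was the 1 gene past the threshold with STEE, at 7.69, 7.75 and 8.04, and all 3 of its probe sets were higher with STEE, by 0.14 to 0.51. Pcp4, a calmodulin-binding protein of layer V and the striatum, gave 10.44, 10.67 and 10.63, and Sulf2, a heparan sulfatase, 8.65, 8.61 and 8.59. In the layer VI and subplate list, Sox5, a factor of early-born deep neurons, gave 5.86, 6.17 and 6.18, with 7 probe sets between -0.16 and 0.31 in the strain comparison. Cplx3, a complexin found in subplate-derived neurons, gave 5.15, 5.35 and 5.45. Nr4a2 (Nurr1), which like Ctgf marks subplate-derived neurons, gave 8.27, 8.43 and 8.34 and did not reach the threshold in any comparison. Tle4, a corepressor of corticothalamic neurons, gave 7.84, 7.93 and 7.93, so of the other layer VI genes only Sox5 was past the threshold between the strains and none was with STEE.

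**Figure D3:**
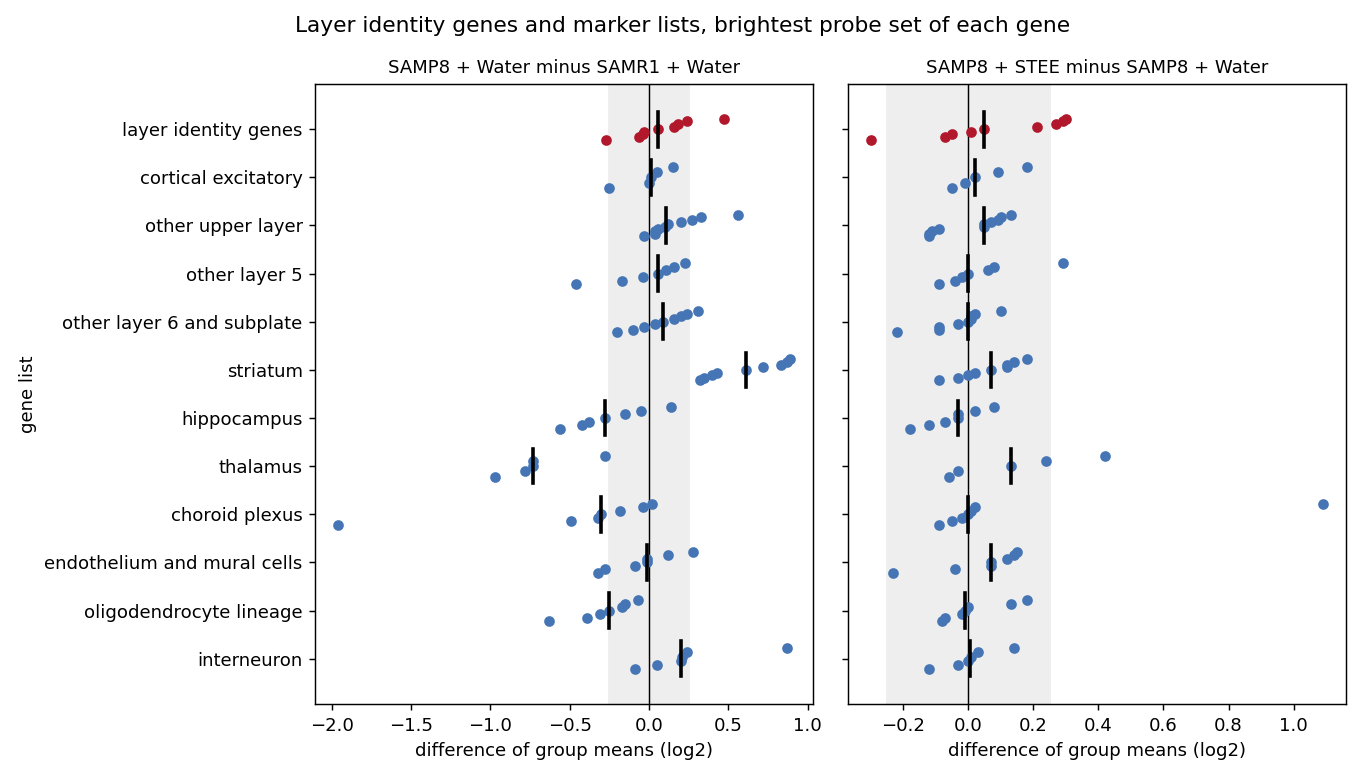
Difference of group mean log2 signal (horizontal axis) of each gene, by its brightest probe set, in the 9 layer genes (red) and 11 lists of other genes (blue), between the strains (left panel) and with STEE (right panel); the black bar is the median of each list, and the scales of the panels differ. The striatal genes lie between 0.32 and 0.89 in the strain panel and between -0.09 and 0.18 in the STEE panel, while the thalamic genes all lie below 0 between the strains.

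Ctgf had the largest strain difference of the 9 brightest probe sets, and genes were ranked by how near they came to its strain and STEE differences over the 3 group means. Of 11870 genes with 1 symbol and a signal at or above the median, 6 lay within 0.05 of it. The nearest was Dnajb1, a heat shock co-chaperone, at 7.90 in SAMR1 + Water, 8.36 in SAMP8 + Water and 8.07 in SAMP8 + STEE. Next came Plat, the tissue plasminogen activator, at 6.09, 6.58 and 6.26, and Tshz1, a zinc finger factor, at 7.49, 7.93 and 7.64. A likeness over 3 group means is a description only.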

How the data were processed

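Total RNA from the cerebral cortex of 6 mice was labeled with a 3′ IVT kit and hybridised to Affymetrix mouse array strips with perfect-match probes. The authors normalised the arrays with RMA (Affymetrix Expression Console) and made their comparisons with the Transcriptome Analysis Console, as named in the submitters' processing notes and the study's methods. The deposited values used here are log2 group means, averaged over the 2 mice of a group with a bi-weight average and given to 2 decimals, so that a difference can be off by up to 0.01 from rounding. The genome build of the annotation is not given in the sources used here. The tables also hold the authors' fold changes, p-values and FDR values, which were not used.

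Both tables held 45077 probe sets, of which 5694 had no symbol, and the SAMP8 + Water means were equal in both (0 differed). Differences of means, counts and medians were computed in Python 3.11.15 with numpy 2.4.6, pandas 2.3.3 and matplotlib 3.10.9, and the scripts were tested on simulated data. No test was run. Entries with several symbols were split and each symbol counted. A gene was read by its brightest probe set, by the mean of the 3 group means. The rule for named genes took all 9 members and, of each other list, the genes past 0.25 in a comparison and the 2 brightest; of the lists for other tissues and cell types only some of these are named, and a few genes that the rule takes are not reported here. Of the 79 list genes 1 (Drd1) was matched by a RefSeq synonym. The members and lists were chosen with earlier results of these data known. Alternatives were the mean or median over probe sets, only bright probe sets, only single-symbol probe sets, median centring, and thresholds of 0.14 and 0.5.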

Additional observations from a re-analysis of the deposited data

How the results depend on the processing

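The counts of layer genes and probe sets moved most with the threshold. At 0.14, 5 genes (24.8% of all genes) and 17 probe sets (25.9% of all) were past it between the strains, 5 genes (15.2%) and 9 probe sets (16.2%) with STEE, and 4 genes (26.6%) and 12 probe sets (27.6%) between SAMP8 + STEE and SAMR1 + Water. At 0.5, the counts were 0 genes and 0 probe sets in each of the 3 comparisons, against 0.164% to 1.56% of all probe sets. Between the strains, 1 gene rather than 2 was past 0.25 with the mean over probe sets, the median over probe sets or the mean over bright probe sets, since Cux2 was then within it; with STEE these settings left 3 genes rather than 4, without Cux2, and between SAMP8 + STEE and SAMR1 + Water 2 rather than 3, with Foxp2 at 0.18, 0.24 and 0.248. No direction past the threshold reversed. For the 6 genes with several probe sets, these settings moved 39 values by no more than the SD over the gene's probe sets and 15 by more, among them Cux2, at -0.18 and -0.15 between the strains and 0.11 and 0.04 with STEE for the mean and median over its probe sets; the 3 genes with 1 probe set could not move. The groups held separate mice, so there was no pairing to use, and because only group means were given, no mouse could be left out. With 2 mice in a group and no value per mouse, a single mouse could set any of these differences.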
